A study of Mus musculus with 32 samples.

Results

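The AIM2-like receptors of the mouse, encoded by the Ifi200 genes, were followed in 32 RNA sequencing libraries of bone marrow-derived macrophages (BMDMs), which are macrophages grown from bone marrow in medium with L929 cell supernatant. The members were chosen by name, with earlier results of these data known. The 10 listed symbols were looked up among the 54281 gene identifiers of the count table. They met 9 genes, because *Mnda* is an older symbol of *Ifi211*. The 9 genes were *Aim2* (ENSMUSG00000037860), *Ifi203* (ENSMUSG00000039997), *Ifi204* (ENSMUSG00000073489), *Ifi205* (ENSMUSG00000054203), *Ifi207* (ENSMUSG00000073490), *Ifi208* (ENSMUSG00000066677), *Ifi209* (ENSMUSG00000043263), *Ifi211* (ENSMUSG00000026536) and *Ifi213* (ENSMUSG00000073491). All 9 passed the filter on low counts, which left 15257 genes for the tests.

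All mice carried R26 CreERT2, a Cre recombinase expressed from the ubiquitous Rosa26 locus that 4-hydroxytamoxifen (4-OHT) switches on. In Trex1 FL/FL cells both alleles of *Trex1*, a DNA exonuclease, are flanked by loxP sites and can be deleted, whereas Trex1 WT/FL cells keep 1 wild-type allele. Cells of both genotypes were either left untreated or exposed to 2 µg/ml 4-OHT for 22 h, and RNA was taken on day 1, 2, 3 or 4 after the treatment, with 2 libraries in each of the 16 groups. The comparison of the 4-OHT-treated genotypes asked how the transcripts of macrophages changed as TREX1 was lost, and the untreated cells and the 4-OHT-treated Trex1 WT/FL cells served as controls. The labels give no animal, age, batch or replicate number for any library, so the p-values below measure only the spread between these libraries, which may be technical. With 2 libraries against 2 the smallest p an exact permutation test allows is 0.33, and every test below therefore used the spread shared over all 16 groups.

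Ifi200 proteins typically join a pyrin domain, which binds other proteins of the same fold, to a HIN domain, which binds DNA, and some members lack one of them. AIM2 senses double-stranded DNA in the cytosol and assembles an inflammasome with the adaptor ASC and caspase-1, and p204, the product of *Ifi204*, is often compared with human IFI16 and has been linked to DNA sensing upstream of STING. TREX1 degrades DNA in the cytosol, and without it cGAS and STING drive type I interferon, which in turn induces many interferon-stimulated genes (ISGs), several Ifi200 genes among them.

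*Trex1* itself was counted at 0 in 6 of the 8 libraries of 4-OHT-treated Trex1 FL/FL cells and at 14 and 9 reads in the day 2 libraries, against 758 to 3622 reads in the 8 from Trex1 WT/FL cells given 4-OHT. The libraries held between 35120505 and 63760884 counts (median 44841991), and no member fell under 7 counts in any library. Levels are given below as CPM, which are counts scaled to a common library size, here after TMM scaling. The summed CPM of 7 macrophage markers ran from 15024 to 16858 over both genotypes given 4-OHT on day 1, and was 26245 and 28254 in Trex1 FL/FL against 31671 and 33691 in Trex1 WT/FL on day 2, 38258 and 38735 against 45021 and 47292 on day 3, and 28567 and 30511 against 30227 and 30996 on day 4. Summed markers of neutrophils and progenitors reached at most 17.8 CPM and those of dendritic cells at most 2.47 CPM. In bulk RNA a smaller share of expressing cells and less RNA per cell cannot be told apart.

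The 9 genes lie in 1 cluster on mouse chromosome 1, within chr1:173178445-173859456 (GRCm39), a stretch of 681 kb with 13 protein-coding genes, of which *Ifi206*, *Ifi214*, *Mndal* and *Ifi202b* were not among the listed names. The cluster arose by gene duplication, and the members share sequence: the share of a member's 31-base transcript words that also occur in another gene was 3.07% for *Aim2*, 15.4% for *Ifi207*, 20.5% for *Ifi213*, 22.6% for *Ifi205*, 25% for *Ifi203*, 34.2% for *Ifi204*, 35.3% for *Ifi208*, 47.5% for *Ifi209* and 75.2% for *Ifi211*. The largest shares with a single partner were those of *Ifi209* with *Ifi214* (47.1%), *Ifi211* with *Ifi205* (46.5%) and with *Ifi204* (37.2%), and *Ifi208* with *Ifi213* (30.6%). Reads of such stretches had to be divided between genes by the quantification, so the split between close members, above all for *Ifi211* and *Ifi209*, is uncertain.

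Because the members moved together in the comparisons below, their promoters are shown here. For 8 of the 9 genes a RefSeq start site was matched (table build GRCm38.p6, placed on GRCm39 by exact match), *Ifi203* having 2 start sites, and none was matched for *Ifi204*. Each line gives the 150 bases before the start site, 5′ to 3′ on the gene's own strand. Capitals mark the core of an interferon-stimulated response element (ISRE, GAAANNGAAA), the site through which type I interferon acts on many ISGs, or, in *Aim2*, the word GAGGAAGT bound by PU.1, a myeloid transcription factor.
Aim2, chr1:173248020-173248169, plus strand: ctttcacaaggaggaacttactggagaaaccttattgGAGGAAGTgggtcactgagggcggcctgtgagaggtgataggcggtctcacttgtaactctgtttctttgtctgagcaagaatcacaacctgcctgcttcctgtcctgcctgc
Ifi205, chr1:173859322-173859471, minus strand: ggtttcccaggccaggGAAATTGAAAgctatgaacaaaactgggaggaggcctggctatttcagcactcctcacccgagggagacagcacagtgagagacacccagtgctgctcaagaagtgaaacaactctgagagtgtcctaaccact
Ifi203 (start site 1), chr1:173770239-173770388, minus strand: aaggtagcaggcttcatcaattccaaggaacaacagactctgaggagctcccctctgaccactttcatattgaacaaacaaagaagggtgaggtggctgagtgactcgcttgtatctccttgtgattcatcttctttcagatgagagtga
Ifi203 (start site 2), chr1:173770059-173770208, minus strand: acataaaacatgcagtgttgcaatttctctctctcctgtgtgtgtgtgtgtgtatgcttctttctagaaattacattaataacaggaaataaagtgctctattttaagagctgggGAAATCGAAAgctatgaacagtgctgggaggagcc
Ifi207, chr1:173569376-173569525, minus strand: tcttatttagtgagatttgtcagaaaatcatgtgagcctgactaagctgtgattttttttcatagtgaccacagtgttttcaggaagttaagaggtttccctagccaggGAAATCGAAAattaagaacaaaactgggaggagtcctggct
Ifi208, chr1:173501081-173501230, plus strand: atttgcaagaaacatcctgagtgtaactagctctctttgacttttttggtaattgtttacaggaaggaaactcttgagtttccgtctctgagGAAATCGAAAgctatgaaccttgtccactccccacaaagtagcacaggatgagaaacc
Ifi209, chr1:173458275-173458424, plus strand: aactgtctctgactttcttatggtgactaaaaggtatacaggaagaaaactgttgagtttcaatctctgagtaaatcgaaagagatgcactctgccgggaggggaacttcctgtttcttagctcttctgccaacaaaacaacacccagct
Ifi211, chr1:173740613-173740762, minus strand: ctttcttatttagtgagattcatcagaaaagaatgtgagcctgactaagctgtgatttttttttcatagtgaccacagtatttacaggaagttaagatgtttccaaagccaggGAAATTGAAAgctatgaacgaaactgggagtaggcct
Ifi213, chr1:173426839-173426988, minus strand: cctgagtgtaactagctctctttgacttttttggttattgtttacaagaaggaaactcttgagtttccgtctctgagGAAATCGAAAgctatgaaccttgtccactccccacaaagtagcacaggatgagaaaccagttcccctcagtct

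The ISRE core was searched on both strands of the RefSeq windows, which run from 250 bases before to 50 bases after a start site. It was found for 6 of the 8 genes, at -73 to -64 from the start site in *Ifi213*, -58 to -49 in *Ifi208*, -41 to -32 in *Ifi207*, -37 to -28 in *Ifi211*, -35 to -26 at the second start site of *Ifi203* and -134 to -125 in *Ifi205*. *Ifi205* held another core at 24 to 33 past its start site, on the opposite strand. Of all 32851 RefSeq windows, over 27025 genes, 3.44% held the core. *Aim2*, *Ifi209* and the first start site of *Ifi203* held none, which says only that these letters were not in this window. Words with 1 mismatch to the core, with positions counted from its 5′ end, were at -51 to -42 in *Aim2* (A3C, opposite strand) and at 4 places in *Ifi209*, among them -79 to -70 (G1T), and 35.4% of all windows held a word with at most 1 such mismatch. The word GAGGAAGT stood at -113 to -106 in *Aim2* and in no other member (3.2% of all windows, both strands), and the gamma-activated site word TTCNNNGAA was in no member window (8.3% of all windows). Within the bases shown above, *Ifi213* and *Ifi208* were identical over 88 bases, from -103 to -16 in *Ifi213* and -88 to -1 in *Ifi208*. That run ends at the edge of the *Ifi208* stretch, so the full run may be longer. The longest run shared by *Ifi207* and *Ifi211* was of 31 bases. A word match is a description of the sequence and was not tested for binding.

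After 4-OHT, Trex1 FL/FL BMDMs had more of all 9 Ifi200 transcripts than Trex1 WT/FL BMDMs on day 2 and on day 4. On day 3 the difference passed the test for 8 of them, *Ifi208* being the exception, and on day 1 for none. The size of the difference followed the same course in all 9 genes, smaller on day 3 than on day 2 and largest on day 4, and *Aim2* was the lowest on each of these days, with log2 fold changes of 0.41, 0.33 and 0.81. The step down from day 2 to day 3 did not pass the test for any member. The steepest difference was that of *Ifi205*, at 4.06 on the log2 scale on day 4.

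A gene was called when edgeR's quasi-likelihood test gave it a p below 0.01 after Benjamini-Hochberg adjustment over all 15257 genes, and a stricter call also asked for a log2 fold change above 1.5. On day 2, 9 of 9 members were called higher in 4-OHT-treated Trex1 FL/FL cells, where 5.69% of all genes were, and *Ifi205* and *Ifi213* met the stricter rule (0.498% of all genes). On day 3, 8 of 9 were called higher against 6.69% of all genes, and *Ifi205* alone met the stricter rule (0.485%). On day 4, 9 of 9 were called higher against 9.84% of all genes, and 7 met the stricter rule (1.65%), all but *Aim2* and *Ifi207*. The median log2 fold change of the 9 members was 1.18, 0.93 and 2.11 on these days, beside a median over all genes of -0.01 on day 2 and -0.04 on day 4. On day 1 none was called (0.00655% of all genes were, under either rule), 2 members had an unadjusted p below 0.05, *Ifi204* and *Ifi211*, and DESeq2 called 0. The median of the members on day 1 was 0.28, with values from -0.33 to 0.71. The counts moved with single libraries: on day 2 the stricter count was 4 without library 1 of the Trex1 WT/FL cells, and on day 3, 5 members were called without library 1 of either genotype. On day 4 all 9 were still called at an adjusted p below 0.01 when any 1 of the 4 libraries was left out, and 6 or 7 by the stricter rule.

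The separation was also seen library by library. On day 1 no member had both 4-OHT-treated Trex1 FL/FL libraries above the 6 other libraries of that day (2.63% of all genes did). On days 2, 3 and 4 all 9 members did, against 17.3%, 18.8% and 18.3% of all genes. The lower of the Trex1 FL/FL libraries was at 1.23 times (*Aim2*) to 5.29 times (*Ifi205*) the highest of the 6 others on day 2, at 1.13 times (*Ifi208*) to 3.27 times (*Ifi205*) on day 3 and at 1.60 times (*Aim2*) to 14.6 times (*Ifi205*) on day 4.

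**Figure D1:**
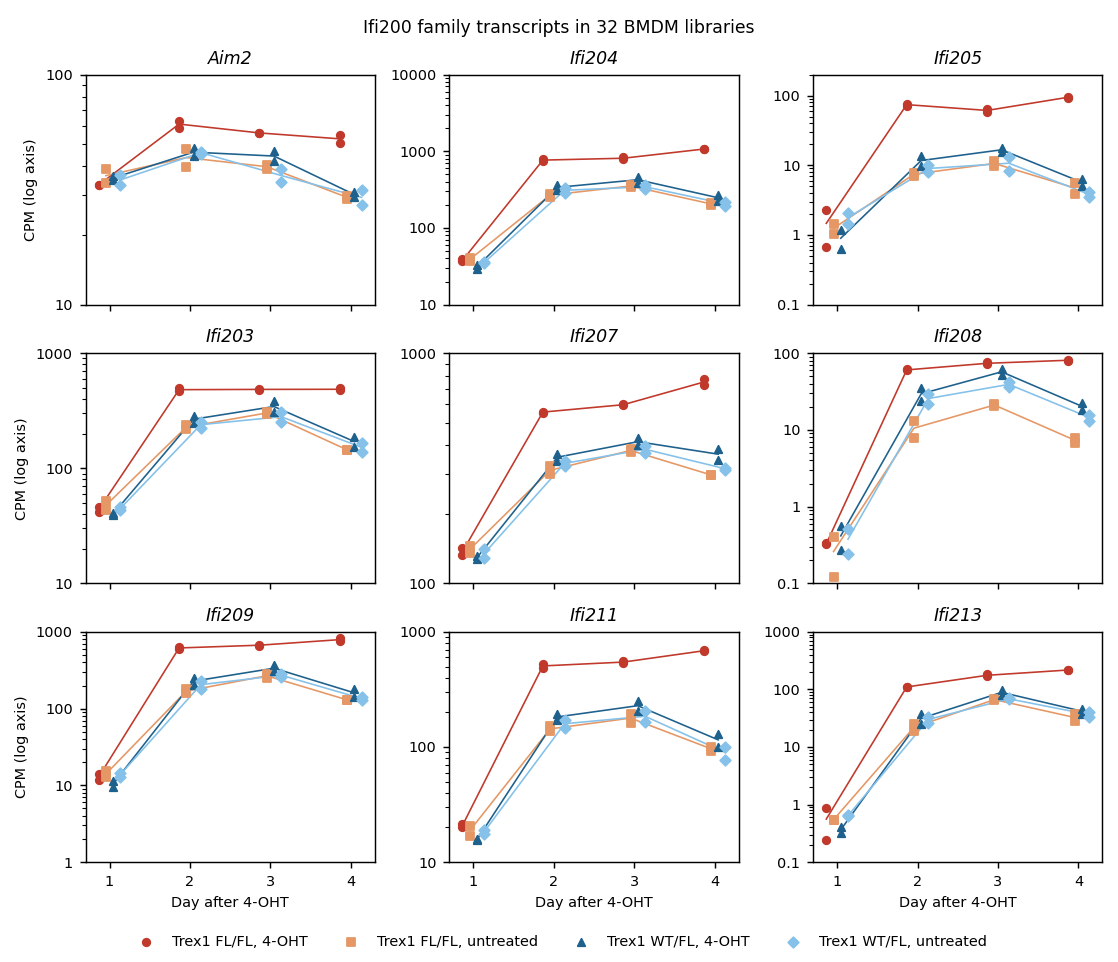
Level of each Ifi200 gene in all 32 libraries. The horizontal axis is the day after 4-OHT, the vertical axis is CPM on a log scale that differs between panels, each point is 1 library and each line joins the means of the 2 libraries of a group; from day 2 on, the red circles of 4-OHT-treated Trex1 FL/FL cells stand above all other points of their day in every panel, and all panels but that of *Aim2* climb steeply from day 1 to day 2.

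*Aim2*, the sensor of the family that starts an inflammasome, was at 33.1 and 33.2 CPM in 4-OHT-treated Trex1 FL/FL cells on day 1, 63.0 and 58.9 CPM on day 2, 55.6 and 55.9 CPM on day 3 and 54.7 and 50.4 CPM on day 4. In 4-OHT-treated Trex1 WT/FL cells it was at 34.9 and 36.1 CPM, 47.8 and 44.2 CPM, 42.1 and 46.4 CPM, and 29.4 and 30.8 CPM on the same days. The groups were apart on days 2 to 4, and the difference of day 4 came with a fall in the control cells while the Trex1 FL/FL cells kept to a range of 50.4 to 55.9 CPM from day 3. The log2 fold changes of *Aim2* were 0.41 ± 0.09 (SE, edgeR adjusted p = 0.00116), 0.33 ± 0.09 (adjusted p = 0.00542) and 0.81 ± 0.09 (adjusted p = 3.06e-08) on days 2, 3 and 4. The call of day 2 was lost without library 1 of the Trex1 FL/FL cells (adjusted p = 0.0299) or library 2 of the Trex1 WT/FL cells (adjusted p = 0.0375), and that of day 3 without either Trex1 FL/FL library or without library 1 of the Trex1 WT/FL cells.

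The untreated cells put *Aim2* in the same low range: 33.9 and 38.8 CPM, 39.8 and 47.4 CPM, 38.9 and 40.6 CPM, and 29.6 and 28.9 CPM in Trex1 FL/FL cells on days 1 to 4, and 33.3 and 36.4 CPM, 45.3 and 46.2 CPM, 34.0 and 38.8 CPM, and 27.1 and 31.4 CPM in Trex1 WT/FL cells. Over the 16 groups the 3 highest means of *Aim2* were those of 4-OHT-treated Trex1 FL/FL cells on day 2 (60.9 CPM), day 3 (55.7 CPM) and day 4 (52.5 CPM), in this order and with no overlap between neighbours. The other 8 genes also had their 3 highest means in this arm but with day 4 first, although for *Ifi203* the 3 days overlapped and for *Ifi208* day 2 overlapped with day 3 of 4-OHT-treated Trex1 WT/FL cells. The steps between days 2, 3 and 4 of *Aim2* in this arm did not pass the test (adjusted p = 0.24 and 0.58).

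*Ifi204*, whose protein p204 is compared with human IFI16, was at 39.0 and 36.7 CPM in 4-OHT-treated Trex1 FL/FL cells on day 1, 747 and 786 CPM on day 2, 833 and 789 CPM on day 3 and 1079 and 1058 CPM on day 4. In 4-OHT-treated Trex1 WT/FL cells the values were 32.8 and 29.6 CPM, 362 and 314 CPM, 388 and 462 CPM, and 223 and 272 CPM. The genotypes lay close together on day 1 and apart on the 3 later days, and on day 4 the level went up in one and down in the other. The log2 fold changes were 0.28 ± 0.10 on day 1 (edgeR adjusted p = 1), 1.18 ± 0.10 on day 2 (adjusted p = 1.51e-08), 0.93 ± 0.10 on day 3 (adjusted p = 3.63e-07) and 2.11 ± 0.10 on day 4 (adjusted p = 3.17e-13). Untreated cells held 34.7 to 40.1 CPM on day 1, 256 to 331 CPM on day 2, 326 to 363 CPM on day 3 and 193 to 218 CPM on day 4 over both genotypes. In 4-OHT-treated Trex1 FL/FL cells *Ifi204* had the highest CPM of the members on day 4, whereas in the other arms *Ifi207* did, a comparison that takes no account of length.

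*Ifi205*, reported to act on the expression of the inflammasome adaptor ASC, was the member with the largest difference on each of days 2, 3 and 4. It stood at 2.27 and 0.665 CPM in 4-OHT-treated Trex1 FL/FL cells on day 1, 71.7 and 76.3 CPM on day 2, 64.3 and 58.0 CPM on day 3 and 96.4 and 91.8 CPM on day 4. In 4-OHT-treated Trex1 WT/FL cells it stood at 1.17 and 0.626 CPM, 13.5 and 9.82 CPM, 15.6 and 17.7 CPM, and 5.06 and 6.29 CPM. On day 1 the genotypes overlapped, and from day 2 on the Trex1 FL/FL libraries were far above the others. The log2 fold changes were 2.67 ± 0.30 (edgeR adjusted p = 4.7e-06), 1.88 ± 0.29 (adjusted p = 0.000136) and 4.06 ± 0.32 (adjusted p = 1.92e-08) on days 2, 3 and 4. Untreated cells of both genotypes ranged from 1.05 to 2.09 CPM on day 1, 7.03 to 10.0 CPM on day 2, 8.33 to 13.1 CPM on day 3 and 3.56 to 5.55 CPM on day 4.

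*Ifi208* was the member whose untreated level differed most between the genotypes. Untreated Trex1 FL/FL cells held 0.398 and 0.122 CPM on day 1, 13.3 and 7.82 CPM on day 2, 21.6 and 20.7 CPM on day 3 and 6.85 and 7.84 CPM on day 4, whereas untreated Trex1 WT/FL cells held 0.510 and 0.243 CPM, 29.2 and 22.1 CPM, 36.2 and 42.4 CPM, and 13.2 and 15.8 CPM. The 2 genotypes overlapped on day 1 and were apart on days 2 to 4, with Trex1 FL/FL the lower. The log2 fold changes of -1.29 ± 0.25, -0.89 ± 0.24 and -0.98 ± 0.26 on days 2, 3 and 4 did not pass edgeR's test (adjusted p = 0.259, 0.866 and 0.0605). For *Ifi213*, the gene with which *Ifi208* shares the most sequence, the untreated libraries overlapped between the genotypes on days 3 and 4. On day 2 they were apart with Trex1 FL/FL the lower, at 24.6 and 19.3 CPM against 33.8 and 26.5 CPM. That log2 fold change of -0.46 ± 0.21 did not pass edgeR's test. On day 1, with few reads, they were apart in the same direction.

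In 4-OHT-treated cells *Ifi208* was at 0.334 and 0.322 CPM in Trex1 FL/FL and 0.559 and 0.273 CPM in Trex1 WT/FL on day 1, 61.5 and 59.7 CPM against 35.3 and 23.8 CPM on day 2, 76.4 and 71.4 CPM against 51.3 and 63.1 CPM on day 3 and 79.1 and 82.8 CPM against 18.0 and 22.6 CPM on day 4. The day 3 values were apart but close, and their log2 fold change of 0.37 ± 0.23 did not pass edgeR's test (adjusted p = 0.306). Those of day 2, 1.04 ± 0.23 (adjusted p = 0.0048), and day 4, 2.00 ± 0.24 (adjusted p = 3.29e-06), passed it. The day 2 call was lost without either Trex1 FL/FL library or without library 2 of the Trex1 WT/FL cells, and in a fit of the 4 compared libraries alone (adjusted p = 0.107). Set against untreated cells of its own genotype, *Ifi208* had log2 fold changes of 2.53, 1.81 and 3.47 after 4-OHT on days 2, 3 and 4, and all 3 differences passed the test.

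*Ifi209*, also known as Pyhin1, and *Ifi211*, the gene with the older symbol *Mnda*, followed similar courses. *Ifi209* was at 606 and 629 CPM in 4-OHT-treated Trex1 FL/FL against 254 and 202 CPM in Trex1 WT/FL on day 2, 683 and 659 CPM against 308 and 365 CPM on day 3 and 825 and 762 CPM against 142 and 179 CPM on day 4. *Ifi211* was at 487 and 526 CPM against 194 and 171 CPM, 554 and 539 CPM against 207 and 250 CPM, and 689 and 682 CPM against at most 131 CPM on the same days. No library of one genotype reached those of the other in either gene. The day 4 log2 fold changes were 2.31 ± 0.14 for *Ifi209* (edgeR adjusted p = 2.97e-10) and 2.57 ± 0.15 for *Ifi211* (adjusted p = 2.99e-10), and on day 1 neither was called, at 14.0 and 11.7 CPM against 11.3 and 9.64 CPM for *Ifi209* and 21.3 and 20.3 CPM against 15.5 and 15.8 CPM for *Ifi211*.

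*Ifi213* had the lowest start next to *Ifi208*, with 0.876 and 0.242 CPM in 4-OHT-treated Trex1 FL/FL and 0.407 and 0.321 CPM in Trex1 WT/FL on day 1. It reached 111 and 110 CPM against 37.8 and 25.1 CPM on day 2, 182 and 170 CPM against 79.0 and 98.9 CPM on day 3 and 215 and 220 CPM against 37.9 and 45.7 CPM on day 4. The groups overlapped on day 1 only. The log2 fold changes were 1.82 ± 0.20 on day 2 (edgeR adjusted p = 4.72e-06), 0.99 ± 0.19 on day 3 (adjusted p = 0.0013) and 2.38 ± 0.20 on day 4 (adjusted p = 5.44e-08). The day 2 call was lost in a fit of the 4 compared libraries alone (adjusted p = 0.0584), and the day 3 call without library 1 of either genotype.

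*Ifi207* and *Ifi203* were the members with the highest CPM on day 1 and had smaller differences. *Ifi207* was at 142 and 132 CPM in 4-OHT-treated Trex1 FL/FL against 127 and 131 CPM in Trex1 WT/FL on day 1, 557 and 553 CPM against 366 and 340 CPM on day 2, 595 and 600 CPM against 398 and 428 CPM on day 3 and 729 and 770 CPM against 345 and 383 CPM on day 4. *Ifi203* was at 467 and 497 CPM against 284 and 249 CPM on day 2, 491 and 478 CPM against 307 and 381 CPM on day 3 and 476 and 496 CPM against 152 and 189 CPM on day 4. In Trex1 FL/FL cells *Ifi203* thus held one level over days 2 to 4, at 467 to 497 CPM, and the day 4 difference arose with lower levels in Trex1 WT/FL cells. The day 4 log2 fold changes were 1.04 ± 0.06 for *Ifi207* (edgeR adjusted p = 6e-13) and 1.51 ± 0.13 for *Ifi203* (adjusted p = 1.14e-08). The day 3 call of *Ifi203*, 0.49 ± 0.12 (adjusted p = 0.0067), was lost without either Trex1 FL/FL library or without library 1 of the Trex1 WT/FL cells, and also when only the 4 compared libraries (adjusted p = 0.0173) or the 16 4-OHT-treated libraries (adjusted p = 0.0102) were fitted.

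**Figure D2:**
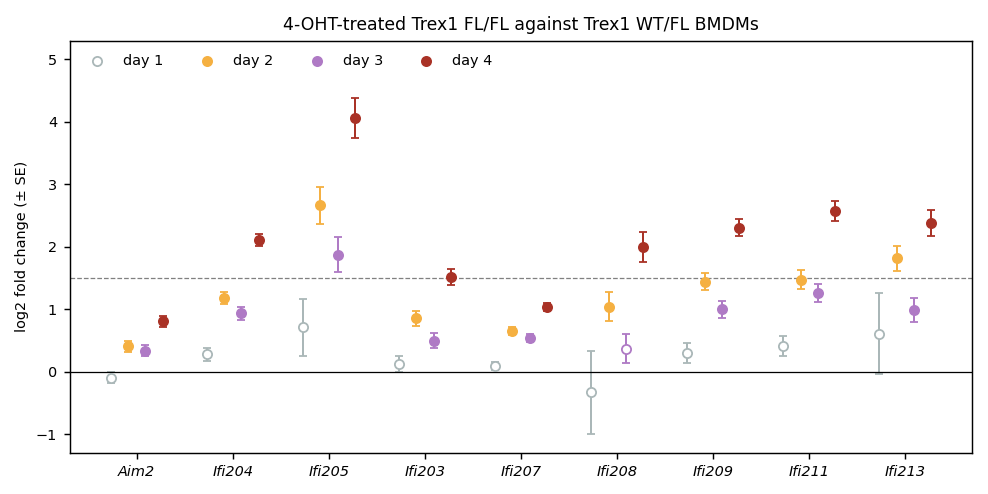
Genotype difference of each Ifi200 gene after 4-OHT. The vertical axis is the log2 fold change of Trex1 FL/FL against Trex1 WT/FL cells from edgeR with its SE, colours are days, filled points passed an adjusted p of 0.01 and the dashed line marks 1.5; all points of day 1 are open, all of day 4 are filled, and *Ifi205* on day 4 is the highest at 4.06.

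Since reads may be divided wrongly between similar genes, the counts of the 9 members were also added up and tested as 1 gene. The sum was 4245 and 4213 CPM in 4-OHT-treated Trex1 FL/FL cells on day 4 against 1053 and 1259 CPM in Trex1 WT/FL cells. Its log2 fold changes were 0.13 ± 0.09 on day 1 (edgeR adjusted p = 1), 1.12 ± 0.09 on day 2 (adjusted p = 1.65e-08), 0.83 ± 0.09 on day 3 (adjusted p = 9.41e-07) and 1.87 ± 0.10 on day 4 (adjusted p = 8.2e-13). How reads were split among these 9 genes has no bearing on this sum, while reads exchanged with other genes, in the locus or outside it, do. The share of a member's words that also occur outside the locus was at most 4.02% (*Ifi204*).

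The controls addressed whether 4-OHT in cells with a wild-type *Trex1* allele, or the floxed alleles without 4-OHT, moved the family. These comparisons share libraries with the one above. In Trex1 WT/FL cells 4-OHT also came with less *Trex1*, at 57.6 and 56.9 CPM against 124 and 114 CPM untreated on day 2. There 4-OHT exposure and the lower *Trex1* level cannot be told apart. Within Trex1 FL/FL cells, 4-OHT against no treatment gave 0, 9, 9 and 9 called members on days 1 to 4 (0 on day 1 also by DESeq2 and at an unadjusted p below 0.05), all higher, beside 0.0131% of all genes called in either direction on day 1 and 7.49%, 8.12% and 10.2% called higher on days 2, 3 and 4; the median log2 fold changes were -0.03, 1.82, 1.32 and 2.61. Within Trex1 WT/FL cells no member was called for 4-OHT on any day by edgeR, beside 0.00655%, 0.0918%, 0.341% and 0.216% of all genes in either direction. There 2, 0, 6 and 3 members had an unadjusted p below 0.05 on days 1 to 4. The 2 of day 1 were lower with 4-OHT, and the 6 of day 3 and 3 of day 4 were higher. The share of all genes at that unadjusted threshold is not given here, so these counts have no background beside them. DESeq2 called 0 on each day.

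In Trex1 WT/FL cells on day 3 the log2 fold changes with 4-OHT were above 0 for all 9 members, where 49.5% of all genes were. Their median was 0.30 and the highest 0.64 (*Ifi205*), beside a median of 0.93 for the genotype difference of that day. That of *Ifi208*, 0.54, was larger than its genotype difference of 0.37, and for every other member it was smaller. The lowest adjusted p was 0.199 (*Aim2*, 0.28 ± 0.09, against a genotype difference of 0.33). The summed family changed by 0.27 ± 0.09 (edgeR adjusted p = 0.327). Between untreated cells of the 2 genotypes no member was called on any day by edgeR, beside 0%, 0%, 0% and 0.0655% of all genes in either direction. At an unadjusted p below 0.05 there were 0, 3, 1 and 1 members on days 1 to 4, all lower in Trex1 FL/FL cells and *Ifi208* among them on each of days 2 to 4, and DESeq2 called 0 on each day. All 9 estimates of day 2 were below 0, with a median of -0.21, where 47.6% of all genes were above 0.

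The interaction of genotype and treatment, which subtracts the untreated genotype difference from the treated one, was called higher for 8 members on day 2 (3.55% of all genes), 5 on day 3 (2.65%) and 9 on day 4 (5.15%). On day 1 it was called for none (0.00655% in either direction) and no member had an unadjusted p below 0.05. *Aim2* missed the call on day 2 at 0.48 ± 0.12 (adjusted p = 0.0125). On day 3 *Aim2*, *Ifi203*, *Ifi208* and *Ifi213* missed it, with adjusted p from 0.021 to 0.361. The largest day 4 interactions were 3.76 ± 0.46 for *Ifi205* (adjusted p = 1.32e-05) and 2.98 ± 0.35 for *Ifi208* (adjusted p = 7.02e-06).

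Whether the genotype difference itself grew between days was tested as a difference of differences. From day 1 to day 2 it grew for 5 members, *Aim2*, *Ifi204*, *Ifi207*, *Ifi209* and *Ifi211* (2.67% of all genes called higher), with *Ifi209* largest at 1.14. With 1 of the 8 libraries left out, the calls of *Aim2* and *Ifi211* were lost in 8 of 8 fits and that of *Ifi209* in 4, while those of *Ifi204* and *Ifi207* were lost in none. DESeq2 called 7 members, *Ifi203* and *Ifi205* in addition; *Ifi203* stood at 0.73 ± 0.18 by edgeR (adjusted p = 0.0173). For *Ifi205*, *Ifi208* and *Ifi213*, whose day 1 counts were low, the larger estimates of 1.96 ± 0.55, 1.37 ± 0.70 and 1.21 ± 0.70 did not pass (adjusted p = 0.0487, 0.399 and 0.478). From day 2 to day 3 no member was called (0.905% of all genes in either direction), 2 had an unadjusted p below 0.05, DESeq2 called 0, and all 9 estimates were below 0, between -0.07 and -0.83. From day 3 to day 4 the difference grew for 8 members (1.67% of all genes called higher), by 0.51 (*Ifi207*) to 2.18 (*Ifi205*), while *Aim2* missed the call at 0.47 ± 0.12 (adjusted p = 0.0146). The calls of *Ifi208* and *Ifi213* were lost in 6 of 8 fits with 1 library left out, that of *Ifi205* in 5 and those of the other 5 members in none. These counts rested on single libraries: with 1 library left out, 2 to 4 members were called from day 1 to day 2, and 5 from day 3 to day 4 without library 2 of day 3 or library 1 of day 4 in Trex1 WT/FL, or without either day 3 library or library 1 of day 4 in Trex1 FL/FL cells.

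The members differed between days in all 4 arms, also without 4-OHT. From day 1 to day 2 all 9 members rose in 4-OHT-treated Trex1 FL/FL cells, 4-OHT-treated Trex1 WT/FL cells and untreated Trex1 WT/FL cells, and 8 rose in untreated Trex1 FL/FL cells, where *Aim2* missed the call (0.26 ± 0.09, edgeR adjusted p = 0.0126). Of all genes 21.7%, 20.2%, 20.2% and 20.3% were called higher in these arms. The rise was large for most members: in untreated Trex1 WT/FL cells the log2 fold changes were 6.07 for *Ifi208*, 5.56 for *Ifi213*, 3.89 for *Ifi209*, 3.13 for *Ifi204*, 3.12 for *Ifi211*, 2.42 for *Ifi203*, 2.34 for *Ifi205*, 1.30 for *Ifi207* and 0.39 for *Aim2*. The 3 lowest genes of day 1 were thus not the 3 that rose most, since *Ifi205* rose less than *Ifi209* in this arm. The summed macrophage markers were also higher on day 2 than on day 1, as given above for the 4-OHT-treated cells, and their part in the rise was not tested.

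In 4-OHT-treated Trex1 FL/FL cells the same step was 7.63 for *Ifi213*, 7.52 for *Ifi208*, 5.66 for *Ifi205*, 5.59 for *Ifi209*, 4.60 for *Ifi211*, 4.34 for *Ifi204*, 3.46 for *Ifi203*, 2.01 for *Ifi207* and 0.88 for *Aim2* on the log2 scale. *Ifi209* was at 14.7 and 13.0 CPM on day 1 and 229 and 182 CPM on day 2 in untreated Trex1 WT/FL cells, a rise that took place without 4-OHT and with a wild-type *Trex1* allele. *Ifi213* went from 0.649 and 0.632 CPM to 33.8 and 26.5 CPM in the same cells.

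From day 2 to day 3, 1 member rose in 4-OHT-treated Trex1 FL/FL cells (*Ifi213*, 0.67 ± 0.19, against 15.1% of all genes), 5 in 4-OHT-treated Trex1 WT/FL cells (17.7%), 5 in untreated Trex1 FL/FL cells (18.7%) and 2 in untreated Trex1 WT/FL cells (17.1%), *Ifi213* being among them in every arm. *Aim2* fell in untreated Trex1 WT/FL cells by 0.33 on the log2 scale, where 17.8% of all genes were called lower. The counts of members called higher again depended on single libraries: 1 in 4-OHT-treated Trex1 WT/FL cells without library 2 of day 2 or of day 3, 1 in untreated Trex1 FL/FL cells without library 2 of day 2 and 3 without library 1 of day 3, 1 in untreated Trex1 WT/FL cells without library 2 of day 2 or of day 3, and 0 in 4-OHT-treated Trex1 FL/FL cells without any 1 of its libraries. The fall of *Aim2* in untreated Trex1 WT/FL cells was lost without either library of day 2 or library 1 of day 3.

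From day 3 to day 4 most members fell in the 3 control arms, and none was called lower in 4-OHT-treated Trex1 FL/FL cells. In that arm *Ifi204* (0.40 ± 0.10, edgeR adjusted p = 0.0063) and *Ifi207* (0.33 ± 0.06, adjusted p = 0.000454) were called higher (3.64% of all genes), and the other 7 had log2 fold changes from -0.08 (*Aim2*) to 0.62 (*Ifi205*). In 4-OHT-treated Trex1 WT/FL cells 8 members fell (5.93% of all genes called lower), with *Ifi207* at -0.18 the exception; in untreated Trex1 FL/FL cells 8 fell (7.18%), with *Ifi205* at -1.19 the exception (adjusted p = 0.0132); and in untreated Trex1 WT/FL cells all 9 fell (6.39%). The falls were largest for *Ifi208* and *Ifi205*, at -1.50 and -1.56 in 4-OHT-treated Trex1 WT/FL cells, and those of *Ifi204* were alike in the 3 arms, at -0.78, -0.77 and -0.75. For 8 of the 9 members, all but *Ifi207*, the change from day 3 to day 4 was larger in size in 4-OHT-treated Trex1 WT/FL cells than in Trex1 FL/FL cells. Without any 1 of the 4 libraries of 4-OHT-treated Trex1 FL/FL cells at most 1 member was called higher there, and without library 2 of day 3 or library 1 of day 4 the untreated Trex1 WT/FL cells had 5 or 4 members called lower.

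**Figure D3:**
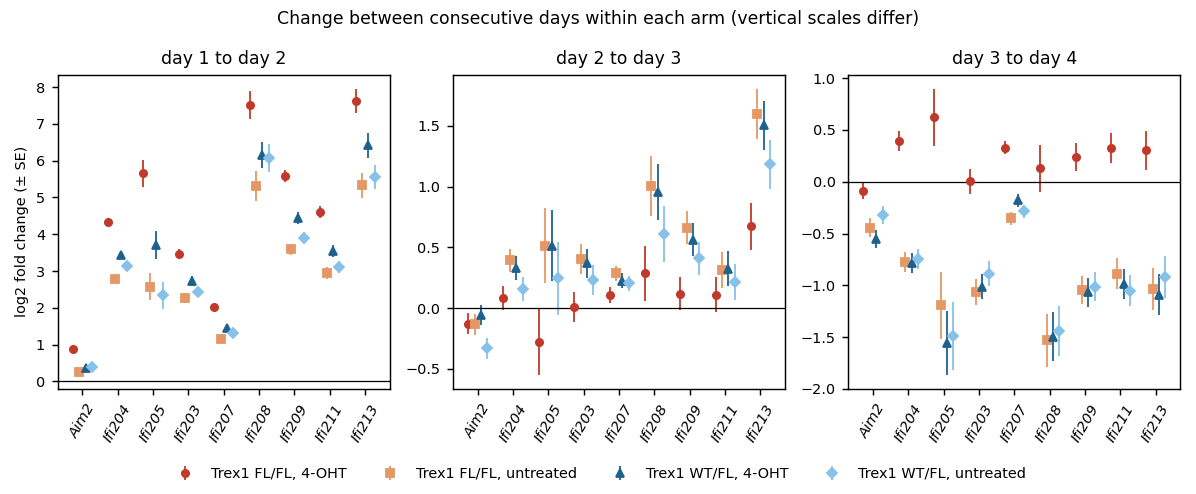
Change of each Ifi200 gene between consecutive days in the 4 arms. The vertical axis is the log2 fold change from edgeR with its SE, on a scale of its own in each panel, and colours and symbols are the arms; all points but those of *Aim2* lie above 1 in the first panel, and in the last panel the control arms lie below 0 while 4-OHT-treated Trex1 FL/FL cells lie near or above it.

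Divided by the length of their merged exons, as a rough way to compare genes with each other, the members changed places. Merged exons join those of all annotated transcripts, from 1878 bases (*Ifi211*) to 9214 bases (*Ifi213*). A gene whose expressed transcript is much shorter than that is therefore placed too low. On day 1 *Ifi207* made up 50.9% to 53.5% of the family's summed CPM per kb in all 4 arms. In 4-OHT-treated Trex1 FL/FL cells its share was 16.6%, 16.7% and 16.9% on days 2, 3 and 4, against 31.9% to 33.3% in the other arms on day 4. In the same cells *Ifi211* went from 15.0% on day 1 to 30.1% on day 4, against 18.4% to 20.2% in the other arms on day 4, *Ifi204* from 14.0% to 24.1% and *Ifi209* from 4.77% to 17.9%. These shares moved the same way in the other arms, where *Ifi204* was at 12.9% to 14.1% on day 1 and 21.7% to 22.2% on day 4, and *Ifi209* at 4.33% to 5.27% and 14.0% to 14.3%. *Aim2*, in contrast, was 6.83% of the family on day 1 and 0.659% on day 4, against 1.48% to 1.75% in the other arms.

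In levels, 4-OHT-treated Trex1 FL/FL cells on day 4 had 365 ± 2.91 CPM per kb of *Ifi211* (SD, 2 libraries), 292 ± 4.06 of *Ifi204*, 217 ± 12.1 of *Ifi209*, 205 ± 7.89 of *Ifi207*, and 62.7 and 65.3 of *Ifi203* in the 2 libraries. *Ifi209* and *Ifi207* overlap within their SD, and the other neighbours in this order are further apart than theirs. *Ifi213*, *Ifi205*, *Ifi208* and *Aim2* followed with means of 23.6, 22.0, 15.4 and 7.99 CPM per kb. *Ifi211* is the shortest of the 9 and the one that shares most of its sequence, so its place at the top depends on how shared reads were divided.

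**Figure D4:**
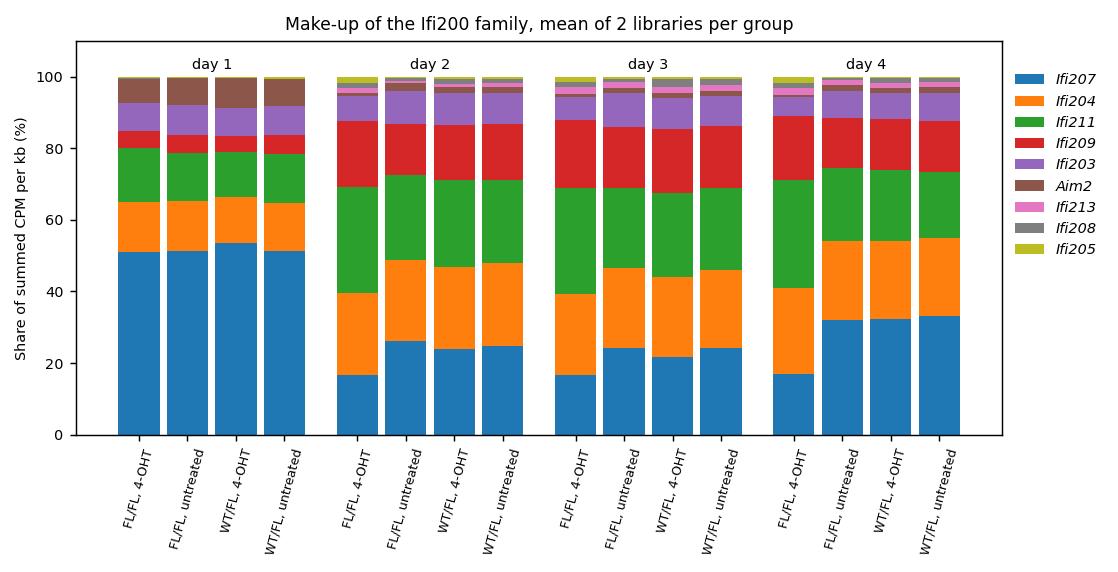
Make-up of the Ifi200 family in the 16 groups. Each bar is a group (mean of 2 libraries), its colours are the shares of the 9 genes in the summed CPM per kb in percent, and the bars are ordered by day and arm; *Ifi207* takes up about as much as all others together on day 1 and less in all arms from day 2 on, least in the 4-OHT-treated Trex1 FL/FL bars (16.6% to 16.9%).

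Across the 32 libraries the members other than *Aim2* followed each other closely, with Pearson r of log2 CPM from 0.887 to 0.998 between pairs (*Ifi209* with *Ifi204* the highest), and *Aim2* with r from 0.475 to 0.767. These r describe 32 libraries in 16 groups that share days, and the large step from day 1 to day 2 enters each of them. Outside the locus, genes among the 5 most like the mean of the 9 members by the same r were *Samd9l* and *Ifit2* (0.998 each), *Ifih1* (0.997) and *Adar* (0.996). For single members the nearest genes were *Tpst1* for *Aim2* (r = 0.963), *Gm5431* for *Ifi213* (0.996), *Ifit3* for *Ifi209* (0.999), *Parp14* for *Ifi208* (0.987), *Tor1aip1* for *Ifi207* (0.996), *Mx1* for *Ifi204* (0.997), *Xaf1* for *Ifi211* (0.998), *Sp100* for *Ifi203* (0.998) and *Daxx* for *Ifi205* (0.986).

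The other genes of the locus moved like the members. Of *Mndal*, *Ifi206* and *Ifi214*, the 3 that passed the filter, all were called higher in 4-OHT-treated Trex1 FL/FL cells on days 2, 3 and 4 and none on day 1, and the day 4 log2 fold changes were 1.63, 2.70 and 2.80. *Ifi202b* did not pass the filter. *Ifi214* was low, with a mean of 2.01 CPM over the 32 libraries, and 47.1% of the words of *Ifi209* also occur in it. *Ifi206* shares words with *Ifi208* (9.93% of those of *Ifi208*) and with *Ifi213* (5.51% of those of *Ifi213*). How reads were divided between these genes and the members is uncertain.

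Inflammasome genes were called in both directions. Of 13 inflammasome genes the comparison of the 4-OHT-treated genotypes called 5, 2 and 5 higher in Trex1 FL/FL on days 2, 3 and 4 and 1, 3 and 2 lower, with medians of 0.08, -0.12 and 0.07; of all genes 5.69%, 6.69% and 9.84% were called higher and 2.48%, 5.42% and 11.7% lower. Among the most highly expressed of them on day 4, *Gsdmd*, which encodes the pore former gasdermin D, was at 0.49 and *Ninj1*, which encodes a protein of membrane rupture, at -0.28. The direct partners of AIM2 were chosen after their values were seen: *Pycard*, the gene of ASC, stood at -0.02, -0.04, -0.12 and 0.20 on days 1 to 4 (edgeR adjusted p = 0.018 on day 4), and *Casp1* at -0.06, 0.67, 0.41 and 0.52 (adjusted p = 1.73e-08 on day 4).

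Of 14 genes of cytosolic DNA sensing 4, 2 and 5 were called higher on days 2, 3 and 4 and 0, 0 and 2 lower. Their medians were only 0.02, 0.05 and 0.14. Far above the day 4 median stood *Irf7*, the interferon regulatory factor, at 2.38 and *Zbp1*, a nucleic acid sensor of cell death, at 2.45. Of 8 genes of interferon receptor signaling 4, 3 and 4 were called higher and 0, 1 and 2 lower; on day 4 *Stat2*, a transcription factor of the pathway, was at 1.99, and *Jak1* and *Ifnar1*, a kinase and a chain of the receptor, at -0.20 and -0.37. All 10 core ISGs were called higher on each of days 2, 3 and 4 and none on day 1, with medians of 0.52, 2.00, 1.39 and 3.02 on days 1 to 4, and *Ifit1*, *Ifit2*, *Ifit3* and *Rsad2* at 2.71, 3.38, 2.93 and 3.42 on day 4. The members' medians of 1.18, 0.93 and 2.11 on days 2 to 4 thus lay below those of these ISGs, a difference that was not tested, and *Ifi205* on day 4 was above all 10, the highest of which was at 3.65.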

How the data were processed

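RNA of BMDM cultures was sequenced by the authors on Illumina NovaSeq, checked with FastQC (11.9) and quantified with Salmon against GRCm39. The deposited table holds estimated counts per Ensembl gene, which the authors summed from transcripts with tximport; they are whole numbers and not normalized. The processing notes also name DESeq2 (1.32). Salmon divides reads shared by similar transcripts, so close Ifi200 paralogs can exchange counts; its annotation release is not given in the sources used here. Gene names and exon lengths came from GENCODE vM39 (51048 of 54281 identifiers matched).

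Counts of 35120505 to 63760884 per library were scaled by TMM and tested with edgeR's quasi-likelihood test (4.0.16, limma 3.58.1, R 4.3.3; 16 group means, 32 libraries, robust, filterByExpr with a minimum count of 10) and Benjamini-Hochberg adjustment over 15257 genes. A gene was called at an adjusted p below 0.01. The stricter call also asked for a log2 fold change above 1.5. The study's own rule asks for both cuts together, with the fold change in either direction, so only the stricter counts follow it. The shared biological coefficient of variation was 0.0912. On simulated data for the day 4 genotype comparison (14642 genes), the stricter rule, in either direction, recovered 195 of 200 genes changed by 2 on the log2 scale. It called 0 unchanged genes. The counts were simulated with edgeR's trended spread and tested with the same model. They held no differences between days and no spread of each gene's own, so this check says little on false calls in the real data. The changed genes were drawn from those with higher counts, so neither the adjusted p alone nor genes of low counts were checked. Fitted fold changes used edgeR's prior count of 0.125. The test itself gives no SE. Each SE was derived as the size of the log2 fold change divided by the square root of the test's F value.

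Alternatives were RLE size factors, DESeq2 (1.42.0), no filter or a minimum count of 50, fits of 16 or 4 libraries, an adjusted p of 0.05, untreated cells as control, the interaction, and leaving out each library. Every member was named; of each gene list, the at most 4 genes with the highest mean CPM; and the genes with the highest r to the members; a few genes that these rules pick are not reported here. The members and lists were chosen with earlier results of these data known. Promoter sequences are from RefSeq.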

Additional observations from a re-analysis of the deposited data

Results flagged for a closer look

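The genotype difference after 4-OHT, taken as the log2 fold change of Trex1 FL/FL against Trex1 WT/FL cells, changed between consecutive days for most Ifi200 genes by a test of the change itself (edgeR's quasi-likelihood test, Benjamini-Hochberg over all genes). From day 1 to day 2 it grew by 0.51 for *Aim2* (adjusted p = 0.00963), 1.14 for *Ifi209* (0.00206), 0.56 for *Ifi207* (0.000139), 0.90 for *Ifi204* (0.000277) and 1.06 for *Ifi211* (0.00585). With 1 of the 8 libraries left out, the calls of *Aim2* and *Ifi211* were lost in 8 of 8 fits and that of *Ifi209* in 4.

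From day 3 to day 4 it grew by 2.18 for *Ifi205* (adjusted p = 0.00251), the gene of the largest step, and by 1.63 for *Ifi208* (0.00388). *Ifi213* followed with 1.39 (0.00356), *Ifi209* with 1.31 (0.000184), *Ifi211* with 1.31 (0.000431), *Ifi204* with 1.18 (5.87e-06), *Ifi203* with 1.02 (0.000733) and *Ifi207* with 0.51 (0.000331). The calls of *Ifi208* and *Ifi213* were lost in 6 of 8 such fits and that of *Ifi205* in 5. The libraries of consecutive days were shared between these steps, and the causes of the changes were not tested.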

How the results depend on the processing

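No call of an Ifi200 gene at an adjusted p below 0.01 between the 4-OHT-treated genotypes on day 4 was lost under any of the alternatives run, and all of their directions on days 2, 3 and 4 held; the values that moved are given here, with 1 library left out at a time as a range in which the lone library was assumed to vary like those of the other groups. On day 1 the members' median of 0.28 ran from 0.031 to 0.36 with 1 library left out, and set against the untreated cells of Trex1 FL/FL mice it was -0.032. The day 1 value of *Ifi208* ran from -0.77 to 0.26 with 1 library left out and turned to 0.31 against untreated Trex1 FL/FL cells and 0.19 in the interaction, while with 1 library left out *Ifi213* ran from -0.58 to 1.26 and *Ifi205* from -0.43 to 1.34. Against the untreated cells the family sum of day 1 turned to -0.049, *Ifi209* to -0.13, *Ifi207* to -0.032, *Ifi204* to -0.037 and *Ifi203* to -0.12. On day 2 the stricter count of 2 was 1 in a fit of the 4 compared libraries, 2 to 4 with 1 library left out, 6 against untreated cells, 5 in the interaction and 9 at an adjusted p of 0.05 without a minimum fold, and the median of 1.18 was 1.08 to 1.35, 1.82 against untreated cells and 1.62 in the interaction. On day 3 the count of 8 was 5 to 8 with 1 library left out and 5 in the interaction, the stricter count of 1 was 3 against untreated cells and 8 at an adjusted p of 0.05, and the median was 1.32 against untreated cells. On day 4 the median was 2.61 against untreated cells and 2.36 in the interaction.

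Without a filter on low counts, a fit that tested more genes, more members were called, and the cause was not tested. There 1 member was called between the 4-OHT-treated genotypes on day 1, 2 lower, 7 higher and 3 higher with 4-OHT in Trex1 WT/FL cells on days 1, 3 and 4, and 2, 1 and 1 lower in untreated Trex1 FL/FL cells on days 2, 3 and 4. The same fit called the growth of the genotype difference for 9 members from day 1 to day 2 and its decline for 4 from day 2 to day 3. Between days it called 8 higher from day 2 to day 3 in untreated Trex1 FL/FL cells, 8 in 4-OHT-treated and 4 in untreated Trex1 WT/FL cells, and 6 from day 3 to day 4 in 4-OHT-treated Trex1 FL/FL cells.

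With 1 library left out, the growth of the genotype difference was called for 2 to 4 members from day 1 to day 2 and 5 to 8 from day 3 to day 4; from day 2 to day 3 the change of *Aim2* ran from -0.14 to 0.00024. The members called higher from day 2 to day 3 were then 0 in 4-OHT-treated Trex1 FL/FL cells, 1 to 5 in untreated Trex1 FL/FL, 1 to 6 in 4-OHT-treated and 1 to 2 in untreated Trex1 WT/FL cells, where 0 to 1 were called lower. From day 3 to day 4 they were 0 to 1 for Trex1 FL/FL given 4-OHT, and 4 to 8 were called lower in untreated Trex1 WT/FL cells. RLE size factors and DESeq2 each gave 0 higher from day 2 to day 3 in 4-OHT-treated Trex1 FL/FL and 1 in untreated Trex1 WT/FL cells. No paired analysis was possible because the labels give no replicate numbers, animals or batches that would link libraries of different groups. Depth limits the day 1 values of *Ifi205*, *Ifi208* and *Ifi213*, which rested on few reads.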
